A study of Mus musculus with 2 samples.

Results

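Mitotic kinases and cyclins, spindle checkpoint proteins, kinesin motors and centromere proteins were examined in mouse 3T3 fibroblasts on 2 Affymetrix MG_U74Av2 arrays. The genes were taken from a list of 32 names and from every symbol that begins with Kif and a digit, with Bub, or that reads Cenp and 1 letter. A probe set, the group of short oligonucleotides that reads 1 transcript, was used where the platform annotation gave it exactly 1 of these symbols. This gave 63 probe sets of 47 genes, of 10833 probe sets and 8251 genes named on the array. Of the listed names 29 were found, and a further 18 genes came from the symbol patterns. Ccnb1, Cdc25b and Bub1b had no probe set under this rule and were not analysed here.

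The 3T3 line is an immortalised mouse embryo fibroblast line that normally grows attached. Both samples were in serum-free DMEM, 1 kept in suspension and 1 plated for 30 min on 10 µg/ml fibronectin, a matrix glycoprotein bound by integrins. The labels state the purpose as finding genes that fibronectin stimulation induces and changes in MAPK signalling. The labels do not name a genotype, a mouse strain or the time in suspension. The design text speaks of 2 replicates, but the labels give 1 array per group. Differences therefore have no replicate check and no p-value, "lower" and "higher" refer to this pair of arrays alone, and array and group cannot be told apart.

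A cell enters mitosis when Cdk1 bound to a B-type cyclin becomes active, helped by Cdc25 phosphatases and by the kinases Plk1 and Aurora A. Kinesins then build the spindle, centromere proteins attach chromosomes to it, and the spindle checkpoint holds back the anaphase promoting complex until all are attached. Most of these genes are transcribed mainly in G2 and mitosis, and many carry a CHR element (TTTGAA) near their start site, often with CCAAT boxes bound by NF-Y. Fibroblasts without serum or attachment tend to stop in G1, where such transcripts are low. The kinesin family also holds motors that carry vesicles and organelles in cells that do not divide.

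The start-site regions of 5 members are shown to let the motifs be seen in the genes whose values follow. They were chosen after the values were seen. Cdk1, Cdc20, Cenpa and Kif4 are cell division genes with lower signals on fibronectin, and Kif3c is a motor not known for a part in mitosis, also with a lower signal. Each sequence covers 180 bases, from 150 before to 29 after the annotated start base, 5′ to 3′ on the gene's strand, from RefSeq on GRCm38.p6. Capitals mark TTTGAA and CCAAT, searched on both strands (TTCAAA and ATTGG on the other).
Cdk1, chr10:69352883-69353062, minus strand: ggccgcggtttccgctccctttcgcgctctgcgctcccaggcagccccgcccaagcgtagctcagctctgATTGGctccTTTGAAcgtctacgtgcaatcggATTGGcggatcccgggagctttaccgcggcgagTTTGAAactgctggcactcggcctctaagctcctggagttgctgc
Cdc20, chr4:118437314-118437493, minus strand: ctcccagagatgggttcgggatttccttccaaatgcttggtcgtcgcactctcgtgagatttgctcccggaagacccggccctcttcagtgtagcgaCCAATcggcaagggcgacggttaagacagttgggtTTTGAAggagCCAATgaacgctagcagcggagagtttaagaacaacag
Cenpa, chr5:30666736-30666915, plus strand: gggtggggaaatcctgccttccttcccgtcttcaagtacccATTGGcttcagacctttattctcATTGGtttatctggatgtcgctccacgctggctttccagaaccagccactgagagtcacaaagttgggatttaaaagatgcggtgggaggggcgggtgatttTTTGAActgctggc
Kif4, chrX:100625915-100626094, plus strand: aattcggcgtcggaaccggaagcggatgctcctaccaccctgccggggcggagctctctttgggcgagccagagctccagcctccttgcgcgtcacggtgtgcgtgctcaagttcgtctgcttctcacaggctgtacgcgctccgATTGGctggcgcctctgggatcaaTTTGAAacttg
Kif3c, chr12:3364982-3365161, plus strand: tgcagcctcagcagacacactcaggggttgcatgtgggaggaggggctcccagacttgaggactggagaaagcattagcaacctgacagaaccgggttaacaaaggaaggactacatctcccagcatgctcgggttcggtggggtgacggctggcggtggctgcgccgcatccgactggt
Cdk1 holds TTTGAA at -71 and -15 from the start base, Cdc20 at -18, Cenpa at 16 and Kif4 at 19, while Kif3c holds neither motif in its window.

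Signals were compared with 34 negative controls on the same array, probe sets for antisense strands and for bacterial and yeast genes. Their median was 459 in suspension and 292 on fibronectin, their 95th percentile 1403 and 1873, and their highest signal 1452 and 2527. A floor of 490, the mean of both arrays' 40th percentiles, was set under all signals. Genes that reached it on either array were called measured, and a ratio with 1 array below it is a bound. Of all 8251 genes 6385 were measured, 911 of them in suspension alone and 669 on fibronectin alone. Of the 47 members, 42 were measured, 9 of them in suspension alone and 6 on fibronectin alone. The sign of these 15 ratios follows from the filter, so directions are counted below over the 27 members measured on both arrays. Of the 6385 measured genes, 3352 exceeded the 95th percentile of negative controls in suspension and 2423 on fibronectin. Of the 47 members, 12 exceeded it in suspension and 7 on fibronectin. Those 7, Cdk1, Bub3, Ccna2, Cdc20, Ccnb2, Cenpb and Stmn1, exceeded it on both arrays and were all lower on fibronectin. Among all 2263 genes above these percentiles on both arrays, 42.2% had a ratio below 0. Neither signal exceeded the 95th percentile of negative controls in 30 of the 42 measured members, whose ratios are less certain. The same held for 2873 of all 6385 measured genes. Of the 7 bright members, Cdk1 and Bub3 were at least 1.5-fold lower, where 7.29% of these 2263 genes were.

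Fibroblast markers on the array were bright, with 9 of 12 above the 95th percentile of negative controls on both arrays and a summed signal of 178843 in suspension and 256853 on fibronectin. Col1a1, Col3a1 and Pdgfrb were among these 9. Thy1 was below the floor on both arrays, with signals of 237 and 63.0. Vim was below the 95th percentile of negative controls on fibronectin, at 1421 in suspension and 686 on fibronectin. Of the other cell types' markers, 0 of 7 epithelial, 0 of 6 muscle and 1 of 7 neural (Tubb3) exceeded this percentile on both arrays. Of 7 macrophage and blood genes 1 did (Cd14). The summed signals in suspension and on fibronectin were 4335 and 2876 for the epithelial list, 4330 and 3624 for muscle, 6355 and 6714 for the neural list, and 10657 and 7608 for macrophage and blood genes. In the last list Ptprc, Itgam and Adgre1 were below the floor on both arrays, while Csf1r (1844 and 1443) and Hba-a1 (2013 and 956) exceeded the 95th percentile of negative controls in suspension and Cd68 (673 and 831) was above the floor. The part of these differences in the results was not tested. With RNA of whole cultures, fewer dividing cells and less RNA per dividing cell cannot be told apart.

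**Figure D1:**
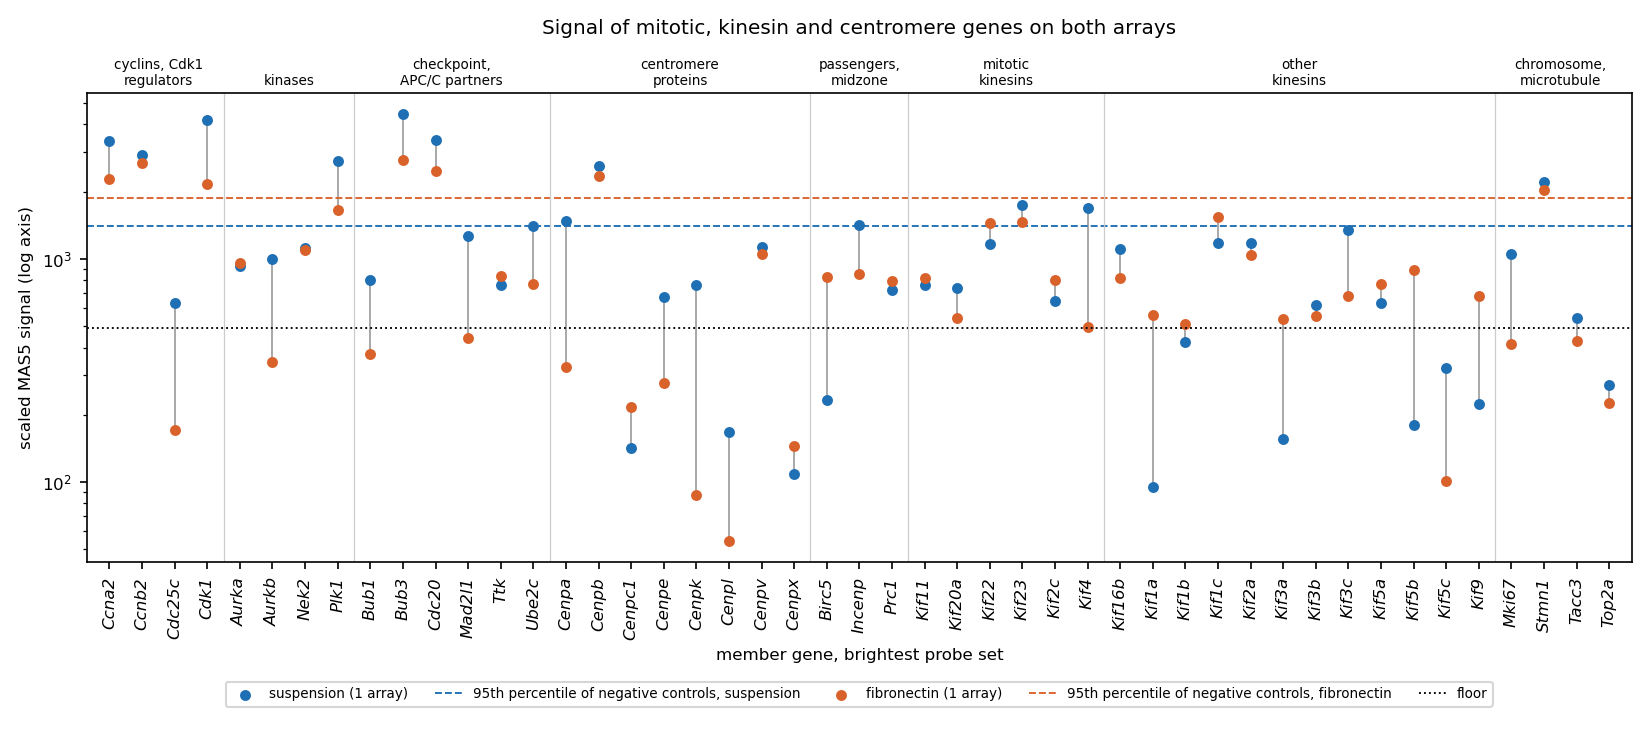
Scaled MAS5 signal (log axis) of the brightest probe set of each of the 47 members on the suspension and the fibronectin array, by role. Dashed lines mark each array's 95th percentile of negative controls (1403 and 1873) and the dotted line the floor of 490. Only 7 members lie above the dashed line of their array in both conditions, and each of them is lower on fibronectin.

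Over the 42 measured members the median log2 ratio was -0.17, against -0.09 over all 6385 measured genes, with 28 members (66.7%) below 0, against 55.1% of all. Among the 27 members measured on both arrays 19 were below 0 (70.4%) and the median was -0.16, where 54.2% of 4805 genes were below 0 with a median of -0.06. Of these 27, 7 were at least 1.5-fold lower (25.9%) and 0 higher, against 19.0% and 15.0% of these genes. With bounds included, at least 1.5-fold lower on fibronectin were 13 members, 31.0% of those measured, where the share of all measured genes was 22.6%. At least 1.5-fold higher were 2 members, 4.76%, against 15.9% of all. At 2-fold, 5 members were lower (Kif4, Cenpa, Mad2l1, Mki67 and Aurkb), 11.9% against 9.27% of all, and 0 were higher, against 5.79%. The 2-fold share is thus near that of all genes, and 4 of these 5 ratios are bounds. They depend on the floor: with a floor at the 60th percentile the log2 ratios of Kif4, Cenpa and Mad2l1 were -0.68, -0.49 and -0.26. Without the transport and other kinesins, the median of 21 members measured on both arrays was -0.15, close to the value with them. The error of 1 log2 ratio, estimated from the disagreement of probe sets of 1 gene over 1146 genes, was 0.68 (SD). For 197 genes with more than 1 probe set above the negative controls on both arrays it was 0.40. The log2 ratio of Cdk1 (-0.95) is beyond 0.40 by more than a factor of 2, those of Bub3, Ccna2 and Cdc20 exceed it by less, and those of Cenpb, Ccnb2 and Stmn1 lie within it. This spread holds no variation between cultures. The count of members below 0 also depended on the scaling. Ccnb2, Cenpb, Cenpv, Kif2a, Kif3b, Nek2 and Stmn1, all among the 19 members below 0, had ratios above 0 with median scaling. Of the 42 measured members, 21 were below 0 with median scaling, where the median of all genes was 0.11. With quantile normalization or loess 24 of 42 were, where that median was -0.02.

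The partners that bring cells into mitosis had lower signals on fibronectin in each of the 3 members measured on both arrays, Cdk1, Ccna2 and Ccnb2. Cdk1, the kinase that drives mitotic entry, gave 4183 in suspension and 2159 on fibronectin, 1.94-fold lower (log2 ratio -0.95). Ccna2, the cyclin of S phase and G2, had 3356 and 2271, a log2 ratio of -0.56. Ccnb2, a B-type cyclin, had 2905 and 2678, a log2 ratio of -0.12. The ratio of Ccnb2 was near 0. Cdc25c, a phosphatase that activates Cdk1, had 635 and 171, the latter below the floor, and was at least 1.30-fold lower. Its other probe set was below the floor on both arrays.

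Of the 4 mitotic kinases, Plk1 was lower on fibronectin, Aurkb reached the floor in suspension alone, and the others were level. Plk1, which promotes mitotic entry and spindle assembly, had 2739 in suspension and 1654 on fibronectin, 1.66-fold lower, in the probe set with the highest signal. Its other probe sets had 2396 and 383, at least 4.89-fold lower, and 1168 and 352, at least 2.39-fold lower. All 3 Plk1 probe sets were lower on fibronectin, but by sizes that differed widely, and all carry a suffix for designs that may share probes with related sequences. Aurkb, the kinase of the chromosomal passenger complex, had 997 and 345 and was at least 2.03-fold lower, with 8 negative controls at or above its suspension signal. Aurka, the spindle pole kinase, had 926 and 957, and Nek2, a centrosome kinase, had 1119 and 1100. Aurka and Nek2 were level, among the negative controls.

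Among spindle checkpoint genes and partners of the anaphase promoting complex, 4 were measured on both arrays. Of these 4, Bub3, Cdc20 and Ube2c were lower on fibronectin and Ttk was slightly higher, and 2 were at least 1.5-fold lower, where 19.0% of genes measured on both arrays were. Bub3, which brings checkpoint kinases to the kinetochore, had 4448 in suspension and 2782 on fibronectin, 1.60-fold lower. Its second probe set had 613 and 572, a log2 ratio of -0.10. Cdc20, the activator of the complex that the checkpoint holds back, had 3418 and 2465, a log2 ratio of -0.47. Bub3 and Cdc20 were the 2 genes of this group above the 95th percentile of negative controls on both arrays. Both were lower on fibronectin, where 1 control reached the signal of Cdc20. Mad2l1, the inhibitor that binds Cdc20, had 1263 and 442, at least 2.58-fold lower. Ube2c, the ubiquitin-conjugating enzyme of the complex, had 1396 and 769, 1.82-fold lower. Bub1, a checkpoint kinase, had 803 and 374, at least 1.64-fold lower, and 668 and 419 in a second probe set, at least 1.36-fold lower. Ttk, the kinase Mps1 that starts the checkpoint signal, was the exception, with 762 and 833 and a log2 ratio of 0.13. The signals of Mad2l1, Ube2c, Bub1 and Ttk lay among the negative controls.

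Of 8 centromere proteins on the array, 2 were measured on both arrays (Cenpb and Cenpv), with ratios near 0. Cenpa, Cenpe and Cenpk reached the floor in suspension alone, so their ratios could only be below 0. Cenpa, the histone H3 variant that marks the centromere, had 1474 in suspension and 326 on fibronectin, at least 3.01-fold lower. No negative control reached its suspension signal, while 16 of 34 reached its fibronectin signal. Cenpb, which binds a satellite repeat, had 2611 and 2351, a log2 ratio of -0.15. Cenpa and Cenpb were both above the controls in suspension. On fibronectin Cenpa was below the floor, while Cenpb exceeded the 95th percentile of negative controls, with 1 control at or above it. Cenpe, a kinetochore motor, had 677 and 276, at least 1.38-fold lower. Cenpk, a protein of the inner kinetochore, had 763 and 87.6, at least 1.56-fold lower. Cenpv had 1134 and 1051, a log2 ratio of -0.11. Cenpc1, Cenpl and Cenpx were below the floor on both arrays, with 142 and 217, 168 and 54.3, and 108 and 144.

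The passenger and midzone genes did not share a direction. Incenp, the scaffold of the chromosomal passenger complex, was 1.67-fold lower in 1 probe set, with 1422 in suspension and 850 on fibronectin. Its other probe set went the opposite way, with 763 and 1477, a log2 ratio of 0.95, so the direction of Incenp was not settled. Birc5 (survivin), a further passenger subunit, had 233 and 825, at least 1.68-fold higher. Prc1, which bundles microtubules of the midzone, had 727 and 792, a log2 ratio of 0.12. Birc5 and Prc1 lay among the negative controls.

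Mitotic kinesins were split, with 3 of 6 below a ratio of 0 and 3 above, and a median of -0.08. Kif4, a chromosome-bound motor that shapes chromosomes and the midzone, had 1682 in suspension and 495 on fibronectin, 3.40-fold lower. Its fibronectin signal was just above the floor and 12 negative controls reached it, so this ratio is close to a bound. Kif23, a motor of the midzone and cytokinesis, had 1745 and 1464, a log2 ratio of -0.25. Kif4 and Kif23 were the 2 kinesins above the 95th percentile of negative controls in suspension, and no kinesin exceeded it on fibronectin. Kif20a, a cytokinesis motor, had 736 and 545, a log2 ratio of -0.43. Kif11, which pushes spindle poles apart, had 764 and 818, Kif22, a chromosome arm motor, had 1159 and 1445, and Kif2c, which depolymerises microtubules, had 647 and 803. The log2 ratios of Kif11, Kif22 and Kif2c were 0.10, 0.32 and 0.31.

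Of 12 kinesins known mainly for transport or other roles, 6 were measured on both arrays, with a median log2 ratio of -0.17, 4 below 0 and 2 above. A further 5 reached the floor on fibronectin alone, so their ratios could only be above 0. None of them exceeded the 95th percentile of negative controls on either array. Kif3c, a subunit of a kinesin-2 motor, had 1352 in suspension and 684 on fibronectin, 1.98-fold lower. Its kinesin-2 relative Kif3b had 620 and 556, a log2 ratio of -0.16, and Kif3a had 155 and 537, a bound of 0.13. Whether they differ from Kif3c was not tested. Kif5b, the widely expressed conventional kinesin heavy chain, had 179 and 888, at least 1.81-fold higher. Kif5a, its neuronal form, had 631 and 774. Kif1c, a vesicle motor, had 1172 and 1537, a log2 ratio of 0.39, while Kif16b, an endosome motor, had 1110 and 819, a log2 ratio of -0.44. Kif2a had 1178 and 1038. Kif9, Kif1a and Kif1b, like Kif3a and Kif5b, reached the floor on the fibronectin array alone, with log2 bounds of 0.47, 0.19 and 0.06, and Kif5c was below the floor on both. This group thus gave signals among the controls, and log2 ratios from -0.98 (Kif3c) to a bound of 0.86 (Kif5b).

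Among the remaining members, Mki67, the proliferation antigen Ki-67, had 1048 in suspension and 415 on fibronectin, at least 2.14-fold lower, and a second probe set below the floor on both arrays. Stmn1 (stathmin), which destabilises microtubules, had 2202 and 2037, a log2 ratio of -0.11. Both signals exceeded the 95th percentile of negative controls, and 2 controls reached the fibronectin signal. Tacc3, a stabiliser of spindle microtubules, had 543 and 428, and Top2a, the topoisomerase of mitotic chromosomes, was below the floor on both, with 272 and 225. Stmn1 was thus nearly level between the arrays. Mki67 lay among the controls on both arrays, with 8 of them at or above it in suspension and 13 on fibronectin.

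**Figure D2:**
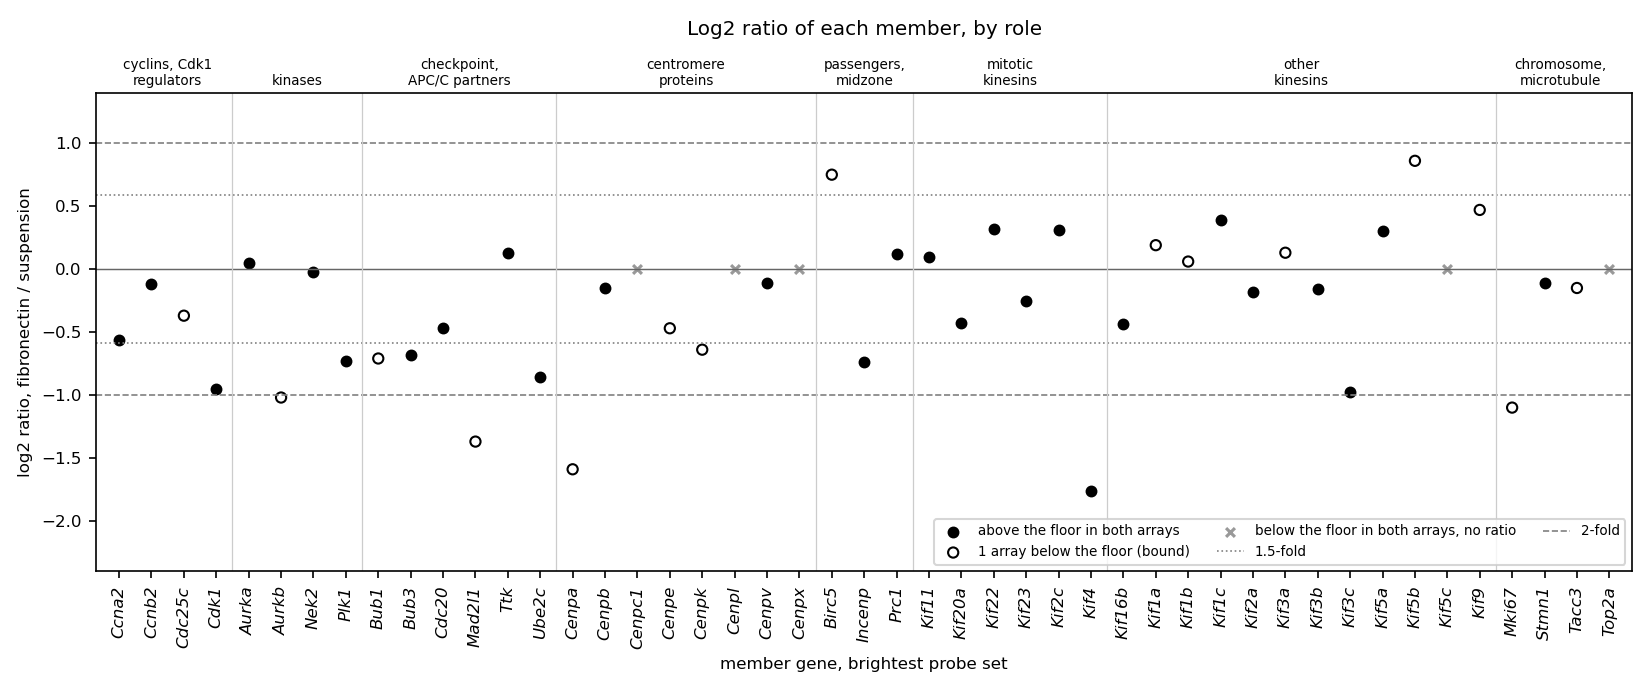
Log2 ratio, fibronectin over suspension, of the brightest probe set of each member, by role; open circles are bounds, crosses have no ratio, and dotted and dashed lines mark 1.5-fold and 2-fold. Of the 27 filled points, 19 lie below 0; the sign of an open point follows from which array reached the floor.

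The share of lower genes depended on signal. When all measured genes were put into 3 equal tiers by mean log2 signal, with borders at 888 and 2117, 28.2% of the lowest tier, 29.0% of the middle and 10.5% of the highest were at least 1.5-fold lower on fibronectin. Of the members, 6 of 22 in the lowest tier (27.3%), 4 of 12 in the middle (33.3%) and 3 of 8 in the highest (37.5%) were. At least 1.5-fold higher were 2 of 22 members in the lowest tier (9.09%) and 0 in the others, against 16.2%, 14.6% and 16.9% of all genes. In the lowest tier, which holds most of the measured members, the share of lower members was near that of all genes. The highest tier held 8 members, the 7 above the 95th percentile of negative controls on both arrays and Plk1. All 8 had a ratio below 0, with a median of -0.52 against 0.04 for all genes of that tier.

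**Figure D3:**
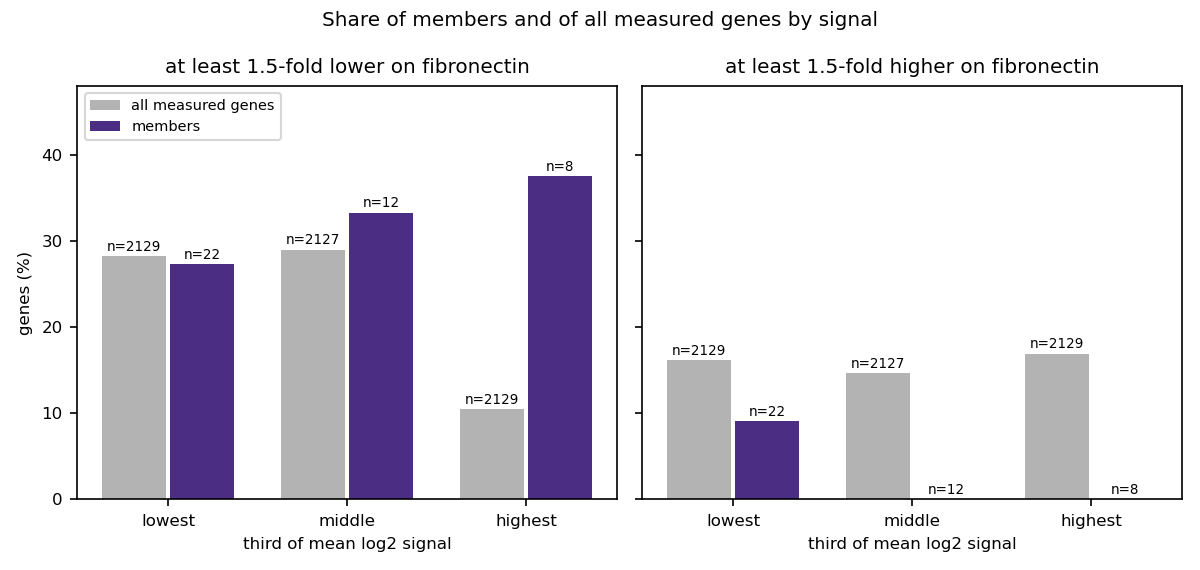
Percent of genes at least 1.5-fold lower (left) and at least 1.5-fold higher (right) on fibronectin in 3 equal tiers of mean log2 signal, for all measured genes (grey) and members (purple), with the number of genes above each bar. Members and all genes are close in the lowest tier on the left (27.3% and 28.2%) and apart in the highest (37.5% of 8 genes and 10.5%).

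The scaling of the arrays set how many bright members were lower. Scaled to their medians, the arrays gave Cenpb, Ccnb2 and Stmn1 log2 ratios of 0.06, 0.09 and 0.10, so 4 of the 7 were lower. Cdk1, Bub3, Ccna2 and Cdc20 were lower under each of the 5 scalings run, with log2 ratios of Cdk1 from -1.43 to -0.75 and of Cdc20 from -0.95 to -0.26. The median of all members was -0.01 with median scaling, where that of all genes was 0.11, and -0.66 with scaling to 9 hybridisation spikes, where that of all genes was -0.51. The median of the members was lower than that of all genes under both. Of all genes, 15.4% were at least 1.5-fold lower and 23.3% higher with median scaling, and 45.9% and 5.77% with spike scaling. The members' counts were 9 lower and 3 higher of 42 with median scaling, and 23 and 1 of 39 with spike scaling.

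**Figure D4:**
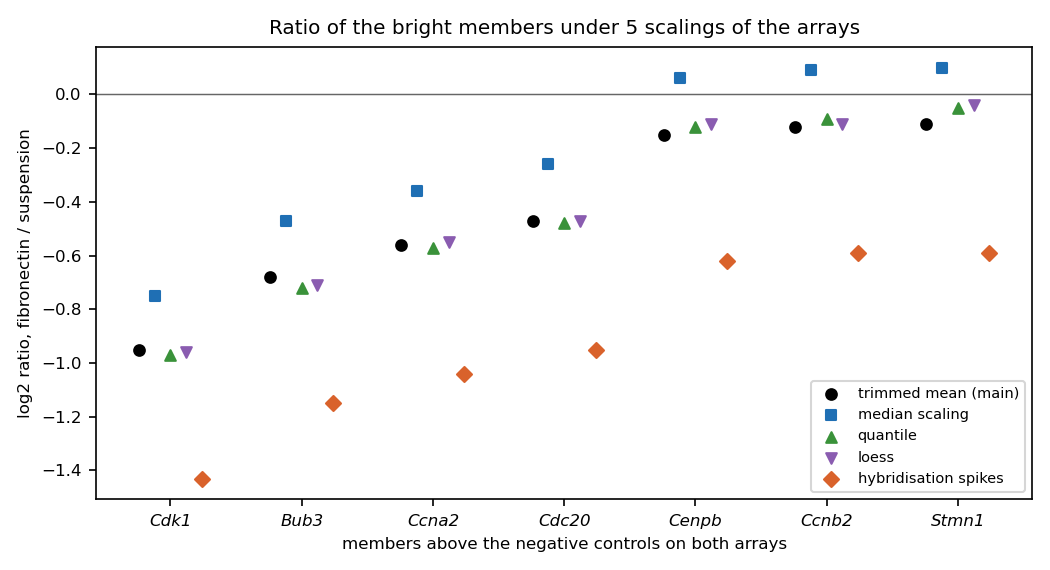
Log2 ratio, fibronectin over suspension, of the 7 members above the 95th percentile of negative controls on both arrays, under 5 scalings of the arrays (symbols). Cdk1, Bub3, Ccna2 and Cdc20 stay below 0 throughout, and Cenpb, Ccnb2 and Stmn1 are above 0 with median scaling.

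Other genes of G2 and mitosis, from a list of cohesin, condensin, kinetochore, spindle and anaphase promoting complex genes, showed both directions. Of 49 on the array 35 were measured on both arrays, with a median log2 ratio of -0.10. At least 1.5-fold lower were 10 (28.6%) and higher 5 (14.3%), against 19.0% and 15.0% of all genes measured on both, so the higher share was near that of all. Cdca8 (borealin), a passenger complex subunit, had 1904 in suspension and 780 on fibronectin, 2.44-fold lower. Ckap2, a spindle protein, had 1724 and 667, 2.59-fold lower, and Racgap1, a partner of Kif23, had 1497 and 915, 1.64-fold lower. These 3 were above the controls in suspension and among them on fibronectin. Hmgb2, a chromatin protein, had 1629 and 259, at least 3.33-fold lower. Cdc26, a subunit of the anaphase promoting complex, had 3423 and 2044, 1.67-fold lower, and Plk3, a stress-responsive polo-like kinase, had 16011 and 9371, 1.71-fold lower. Both Cdc26 and Plk3 exceeded the 95th percentile of negative controls on both arrays. The probe sets of Plk3 and Hmgb2 carry the suffix r, which limits their values as described for suffixes under the processing. Ckap5, a microtubule polymerase, went the other way, with 916 and 1957, 2.14-fold higher. Stag2, a cohesin subunit, had 2735 and 4477, 1.64-fold higher, but 1113 and 559 in its other probe set, a log2 ratio of -0.99. Foxm1 and Mybl2, transcription factors that act on CHR promoters and were picked after their values were seen, had 756 and 1675, and 1276 and 624. Both genes stayed below the 95th percentiles of negative controls, in probe sets with the suffixes g and f. Beside them, replication licensing genes had a median of -0.14 over 9 genes measured on both arrays, with 3 at least 1.5-fold lower (33.3%) and 2 higher (22.2%). The D cyclins, CDK inhibitors and pocket proteins had -0.69 over 10, with 6 of 10 lower and 0 higher. The shares of all genes are again 19.0% and 15.0%. These medians come from the same arrays and their differences were not tested.

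Promoter windows of 300 bases, from 250 before to 50 after the start, were found for 39 of the 47 members (Aurkb, Ccna2, Cdc25c, Incenp, Kif20a, Kif5a, Kif5b and Stmn1 had none). TTTGAA was present in at least 1 window of 19 members (48.7%) and of 20.2% of all 27025 genes with a window. CCAAT was present in 26 members (66.7%) and 41.1% of all genes, and both motifs in 17 members (43.6%) and 7.97% of all. By role, TTTGAA was in 2 of 8 centromere proteins (25.0%), near its share of all genes. It was in 4 of 6 checkpoint genes and partners, 2 of 3 mitotic kinases and 2 of 2 cyclins and Cdk1 regulators. Of passenger and midzone genes 1 of 2 had it, and of the remaining members 2 of 3. TTTGAA stood in each of the 5 genes grouped here as mitotic kinesins with a window and in 1 of 10 other kinesins (Kif1a). This contrast depends on the grouping: Cenpe, a kinetochore motor counted with the centromere proteins, had no TTTGAA. Of the 18 members with TTTGAA outside the transport and other kinesins, 15 had it within 50 bases of the start. This share was not computed for all genes with TTTGAA, so it has no comparison. Over genes measured on both arrays, the median log2 ratio was -0.25 for 13 members with both motifs, 8 of them below 0, and -0.16 for 6 with neither, 5 of them below 0. It was -0.18 for 14 members with TTTGAA, 8 below 0, and -0.16 for 8 without it, 7 below 0. Whether these medians differ by motif was not tested, and the error of 1 ratio does not measure that of a median. Members with both motifs include Kif4, Cenpa and Cdk1 and also Kif11, Kif22, Prc1, Ttk and Aurka, which had ratios above 0. A match of letters does not show that a factor binds.

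**Figure D5:**
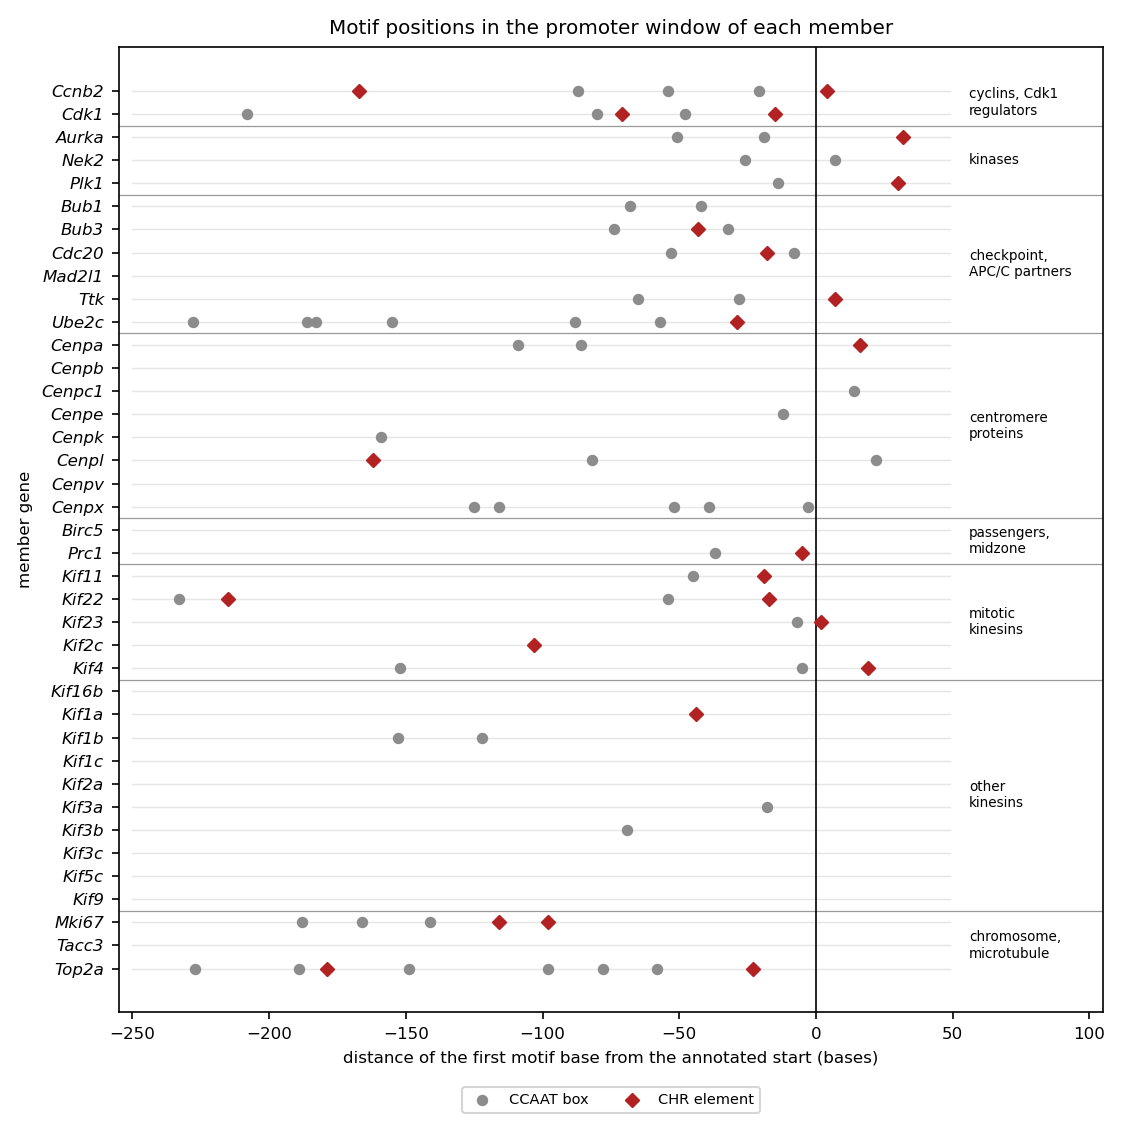
Position of TTTGAA (CHR element, diamonds) and CCAAT (circles), on either strand, relative to the annotated start (0) in the promoter window of 39 members, by role; for genes with several windows, the window with the lowest coordinate among those holding a motif is drawn. Diamonds stand in all 5 genes grouped as mitotic kinesins and in 1 of 10 other kinesins, but not in Cenpe, a motor grouped with the centromere proteins.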

How the data were processed

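The deposited values are intensities on a linear scale, for which the submitters' processing notes name MAS5 and no version or scaling target. Signals were brought to a common 2% trimmed mean, computed without control probe sets (1489 in suspension and 1486 on fibronectin as deposited). Scaled signals were then floored at 490 and log2 was taken. The text's ratio is fibronectin minus suspension on that scale, and a bound is given as at least N-fold. Where a gene had more than 1 probe set, the brightest by mean log2 signal stood for it. All 63 member probe sets matched RefSeq (GRCm38.p6) by gene ID, with 0 symbols changed. Of the member probe sets, 13 carry suffixes f, s, r, i or g, which mark probes that may be shared with related sequences or that left the usual selection rules. Those that stood for Plk1, Ube2c, Kif22, Kif20a, Kif5a and Cdc25c are among them. The number of arrays, 1 per group, limits the precision, and no test was run. Members and gene lists were chosen with earlier results of these data known. Members were named in full where above the 95th percentile of negative controls or at least 2-fold apart with no other measured probe set of opposite sign beyond 0.3, and otherwise as space allowed. Of the other mitosis genes, up to 8 with the largest ratios were named among those above this percentile on at least 1 array. Counts over genes measured on both arrays were added after the data were seen. The ratio code was tested on simulated data. Alternatives changed the scaling, the floor, the probe set and the negative controls. Python 3.11.15, numpy 2.4.6, pandas 2.3.3 and statsmodels 0.14.6 (loess, span 0.4) were used. The instrument settings of the arrays were not used.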

Additional observations from a re-analysis of the deposited data

How the results depend on the processing

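The median log2 ratio of the members was below 0 under all 10 alternatives. It moved most with median scaling (-0.01), scaling to the hybridisation spikes (-0.66) and a floor at the 95th percentile of negative controls (-0.31). These moves exceeded the probe set error divided by the square root of the number of members. That yardstick treats members as independent, while a change of scaling moves them together, so it is not the error of the median. The number of measured members was 42 in the main processing, with no floor, and with median scaling, quantile normalization or loess. It was 39 with spike scaling and 45, 21 and 10 with floors at the 20th and 60th percentiles and at the negative controls. The 13 members at least 1.5-fold lower became 23 of 39 with spike scaling. They became 4 of 21 with a floor at the 60th percentile and 3 of 10 with the floor at the negative controls. The share of all genes went from 22.6% to 45.9%, 15.0% and 9.37%. The 2 at least 1.5-fold higher became 1 with spike scaling, 5 with no floor or a 20th percentile floor, and 0 with either higher floor. The share of all genes went from 15.9% to 5.77%, 20.8%, 20.3%, 13.4% and 13.0% in this order. The 5 at least 2-fold lower became 3 with median scaling, quantile normalization or loess and 12 with spike scaling. They became 9 with no floor or a 20th percentile floor, and 0 with either higher floor, where fewer genes are measured. In this order the share of all genes went from 9.27% to 6.34%, 7.04%, 6.89%, 22.1%, 16.2%, 15.4%, 3.48% and 1.42%. The 0 at least 2-fold higher became 5 with no floor or a 20th percentile floor, where the share of all genes went from 5.79% to 11.3% and 10.6%. The 7 members above the 95th percentile of negative controls on fibronectin became 4 against antisense controls alone and 27 against bacterial and yeast controls alone. They became 15 at the 90th percentile and 2 above the highest control. Shares of all genes at these changed cutoffs are not given, so these counts have no comparison and show only how far the cutoff matters. Of the 7 above the 95th percentile of controls on both arrays, 4 were lower with median scaling, an alternative chosen after seeing the data. Incenp reversed to 0.49 with the floor at the 60th percentile and to 0.11 as the mean of its probe sets, which disagree. Of 322 single-gene values under alternatives, 299 stayed within the probe set error. No paired analysis was possible because each group has 1 array. Signals below the 95th percentile of negative controls limit what can be said of most members.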
